A study of Mus musculus with 14 samples.

Results

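This account follows 43 genes of the cellular response to low oxygen and of glycolysis in mouse embryonic stem cells kept in different media. The genes were taken from a list of symbols chosen with earlier results of these data known, so their shares called below are descriptive. All 43 had an identifier among the 37991 in the deposited tables. They passed the filter on low counts, so that all 43 were among the 16033 genes tested. All cells were C57BL/6 embryonic stem cells carrying a pair of reporters, mCherry at the mir-290 locus and eGFP at mir-302. The main experiment had 2 libraries for each of 5 media, all from cells plated at low density and harvested after 5 days. F/A was serum-free N2B27 to which bFGF (12 ng/ml) and activin A (20 ng/ml) were added. L-Pro/LIF held L-proline at a dose that was not stated, 2i/LIF held the inhibitor pair called 2i, listed in the protocol among the additions to FBS/LIF in wording that leaves it unclear whether serum was present, and VitC/LIF held vitamin C at 500 µM. FBS/LIF, serum with the cytokine LIF, was the medium without additions. A second experiment had 4 libraries, 1 per condition, of cells that the labels give as mCherry+ and eGFP+. These were cells after 5 days of L-proline at 1 mM in serum and LIF, cells after 3 and after 5 days of F/A (20 ng/ml of activin A and an unstated dose of bFGF), and day 0 cells, which were titled untreated and for which the protocol gives LIF, serum and 100 µM vitamin C. RNA was extracted with RNeasy in the main experiment and with Trizol in the second, and the experiments were kept apart. Nothing in the labels states that both libraries of a medium are independent cultures, so p-values measure the spread between these libraries, which may be technical.

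When oxygen is plentiful, prolyl hydroxylases mark the alpha subunits of hypoxia-inducible factors (HIF), and the VHL ubiquitin ligase then sends them for destruction. The hydroxylases need oxygen, iron and 2-oxoglutarate, and vitamin C keeps their iron in the reduced state. When the alpha subunits escape, they pair with ARNT, bind short DNA elements and switch on genes for glucose uptake, glycolysis, lactate export, mitophagy and blood vessel growth. Naive pluripotent stem cells use both glycolysis and respiration, while primed, epiblast-like cells lean on glycolysis.

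Of the 43 genes, 4 were called in 6 of the 7 tested comparisons, more than any other: Bnip3, Egln1, Pfkp and Slc16a3. Their promoters are shown because HIF binds the core letters ACGTG or GCGTG. Each line gives the 250 bases before the RefSeq gene start in GRCm38.p6, read 5′ to 3′ on the strand of the gene, with every match to either core on either strand in capitals. The coordinates are chr7:138909507-138909756 on the minus strand for Bnip3, chr8:124949255-124949504 on the minus strand for Egln1, chr13:6648772-6649021 on the minus strand for Pfkp and chr11:120948817-120949066 on the plus strand for Slc16a3.
Bnip3: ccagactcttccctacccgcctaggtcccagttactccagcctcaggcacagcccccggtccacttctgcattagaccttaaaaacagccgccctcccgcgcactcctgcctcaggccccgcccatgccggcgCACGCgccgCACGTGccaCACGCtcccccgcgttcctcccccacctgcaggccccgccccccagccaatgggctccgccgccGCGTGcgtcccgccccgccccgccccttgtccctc
Egln1: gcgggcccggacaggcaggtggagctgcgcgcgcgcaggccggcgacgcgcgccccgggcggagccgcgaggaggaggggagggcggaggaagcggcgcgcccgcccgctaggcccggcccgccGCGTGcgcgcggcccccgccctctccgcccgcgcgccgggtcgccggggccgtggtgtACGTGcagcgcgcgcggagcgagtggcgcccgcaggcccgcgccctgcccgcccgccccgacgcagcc
Pfkp: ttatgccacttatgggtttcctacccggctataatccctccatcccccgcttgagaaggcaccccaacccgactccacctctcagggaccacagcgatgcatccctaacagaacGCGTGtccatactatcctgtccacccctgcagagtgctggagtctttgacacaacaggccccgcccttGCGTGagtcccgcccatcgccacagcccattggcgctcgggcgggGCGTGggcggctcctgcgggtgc
Slc16a3: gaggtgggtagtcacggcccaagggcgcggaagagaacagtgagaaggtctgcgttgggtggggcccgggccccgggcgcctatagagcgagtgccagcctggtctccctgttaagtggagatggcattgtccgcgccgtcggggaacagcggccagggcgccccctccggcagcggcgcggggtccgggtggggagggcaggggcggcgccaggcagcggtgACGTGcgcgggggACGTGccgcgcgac
Bnip3 had 2 matches to ACGTG, which overlap as the palindrome CACGTG, and 3 to GCGTG. Egln1 had 1 match to each core, Pfkp had 3 to GCGTG and none to ACGTG, and Slc16a3 had 2 to ACGTG and none to GCGTG. At least 1 of the cores was present in 32 of the 37 listed genes with a promoter in the RefSeq table, which is 86.5%, against 60% of the tested genes (6779 of 11299) and 41.5% of all genes in the table (11226 of 27025). A gene with more than 1 start counted as holding a core if any of its starts had a match. For GC content, the start with the highest value was taken for each gene. The median over genes was 62.8% for the listed genes, 61.2% for the tested genes and 52.8% for all genes. The number of starts per gene was not matched between these sets. The share among tested genes and the GC content were added after the first shares had been seen, and a match of 5 letters is a description and not evidence of binding. Epas1, Ero1l, Slc2a3, Ndrg1, Bnip3l and Bhlhe40 had no entry in the table.

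The main libraries held 17778399 to 26354444 mapped fragments, except F/A replicate 1 with 6937945, and the libraries of the second experiment held 33162689 to 39711061 counts. Levels are given as counts scaled to library size by TMM (CPM) for a gene across libraries and as FPKM, fragments scaled to transcript length and library size, where genes are compared with each other. Log2 fold changes are given with their standard error (± SE), and a gene was called where the adjusted p of edgeR's quasi-likelihood test was under 0.05. Summed over 8 markers of embryonic stem cells, levels were 1465 and 1671 CPM in F/A, 1937 and 1984 CPM in L-Pro/LIF, 3340 and 3222 CPM in 2i/LIF, 3150 and 3172 CPM in VitC/LIF, and 3226 and 3144 CPM in FBS/LIF, and no marker was at 0 in any medium. Single stem cell markers did not all follow these sums. In 2i/LIF over FBS/LIF 2 of the 8 were called higher and 3 lower. In F/A over FBS/LIF 1 was called higher and 6 lower, and in L-Pro/LIF over FBS/LIF none higher and 6 lower. The shares of all tested genes called are given with each comparison below. Markers of other cell types moved with the media too, and their part in the results below was not tested. Summed over 12 fibroblast markers, levels were 51.0 and 38.6 CPM in F/A, 34.7 and 37.6 CPM in L-Pro/LIF, 7.79 and 6.33 CPM in 2i/LIF, 9.27 and 10.9 CPM in VitC/LIF, and 12.5 and 11.9 CPM in FBS/LIF. Prrx1 and Postn were at 0 in both libraries of 2i/LIF, VitC/LIF and FBS/LIF. Over 7 trophectoderm markers the sums were 385 and 545 CPM in F/A, 733 and 731 CPM in L-Pro/LIF, and 59.6 to 243.5 CPM in the other media, over 8 primitive endoderm markers 237 and 261 CPM in F/A, 143 and 145 CPM in L-Pro/LIF and 23.5 to 98.1 CPM in the others, and over 5 neuroectoderm markers 328 and 471 CPM in F/A, 283.5 and 314 CPM in L-Pro/LIF and 17.0 to 83.0 CPM in the others. Of 6 trophectoderm markers tested, 3 were called higher and 1 lower in F/A and in L-Pro/LIF over FBS/LIF. In 2i/LIF over FBS/LIF 1 was called higher and 3 lower. Over FBS/LIF, 8 of 10 fibroblast markers tested were called higher in F/A and 7 in L-Pro/LIF. In 2i/LIF 1 of them was higher and 5 lower. Of 8 primitive endoderm markers, 6 were called higher in F/A and 1 in L-Pro/LIF, and 4 lower in 2i/LIF. Of 3 neuroectoderm markers tested, 2 were called higher in F/A and 1 in L-Pro/LIF, and 3 lower in 2i/LIF. In these bulk samples, fewer cells of a type and less RNA per cell cannot be told apart.

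**Figure D1:**
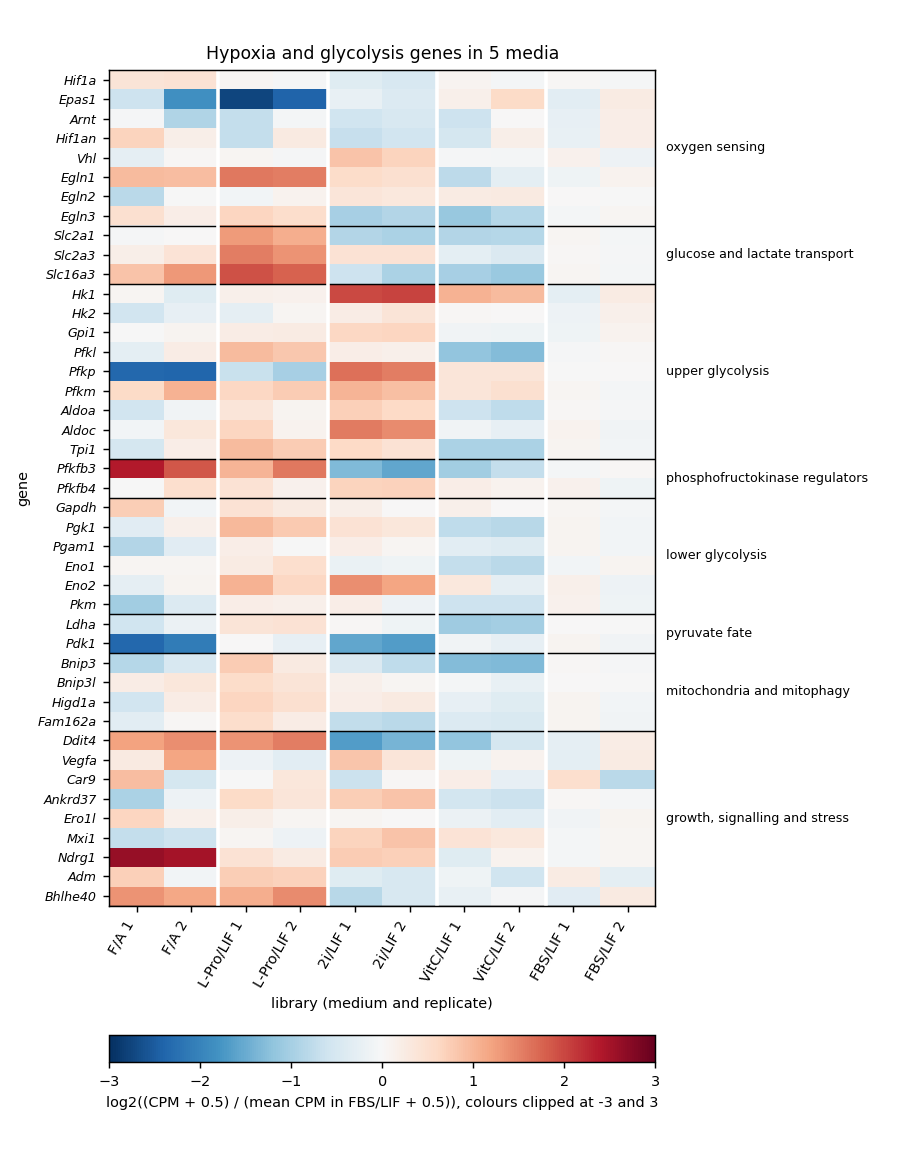
Levels of the 43 genes in each library of the main experiment, as log2 of CPM plus 0.5 over the mean of FBS/LIF, with genes in rows grouped by role and libraries in columns. Slc2a1, Slc2a3 and Slc16a3 are highest in L-Pro/LIF, Epas1 is lowest there, and Pfkp and Pdk1 are lowest in F/A.

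VitC/LIF against FBS/LIF asked what vitamin C alone did to these genes. In VitC/LIF 6 of the 43 genes fell and none rose, against 0.674% of all tested genes called in either direction, 0.362% called higher and 0.312% called lower. They were the glucose transporter Slc2a1 (log2 fold change -0.86 ± 0.11, adjusted p = 0.0216), the lactate exporter Slc16a3 (log2 fold change -1.06 ± 0.17, adjusted p = 0.0405), the liver phosphofructokinase Pfkl (log2 fold change -1.25 ± 0.17, adjusted p = 0.0216), the enolase Eno1 (log2 fold change -0.76 ± 0.13, adjusted p = 0.044), the lactate dehydrogenase Ldha (log2 fold change -1.05 ± 0.15, adjusted p = 0.0263) and the mitophagy receptor Bnip3 (log2 fold change -1.33 ± 0.20, adjusted p = 0.0293). Over all 43 genes the median log2 fold change was -0.25, against -0.01 over all tested genes. Without any 1 of the 4 libraries, FBS/LIF replicate 1 or 2 or VitC/LIF replicate 1 or 2, none of the 6 calls held (adjusted p = 0.114 to 0.318), while their log2 fold changes stayed between -1.36 and -0.68. In an edgeR fit that blocked on replicate number, the adjusted p was 0.0571 for Slc16a3 and 0.0600 for Eno1. The other 4 genes were called in it. Some other settings called 1 of the 43 genes higher in VitC/LIF. They called 8 lower without the filter on low counts, 7 lower on unique hits (fragments that fit a single gene) and 10 lower with DESeq2. Of 34 further hypoxia targets, 2 fell and none rose in the same comparison, the collagen prolyl hydroxylase P4ha1 (log2 fold change -1.11 ± 0.14, adjusted p = 0.0178) and the collagen lysyl hydroxylase Plod2 (log2 fold change -0.77 ± 0.09, adjusted p = 0.0178), and neither was called without any 1 of the 4 libraries. None of 13 genes of HIF degradation and its cofactors, and none of 35 further enzymes of glycolysis and pyruvate use, was called.

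L-Pro/LIF against FBS/LIF asked the same of L-proline. In L-Pro/LIF 12 of the 43 genes rose and 2 fell, against 13.7% called higher, 10.3% called lower and 24.0% called in all among tested genes. All 3 transporters rose, as did Egln1, the main HIF prolyl hydroxylase, the phosphofructokinase activator Pfkfb3, the mTORC1 inhibitor Ddit4 and the repressor Bhlhe40, while the HIF alpha subunit Epas1 and the platelet phosphofructokinase Pfkp fell. These 9 calls held without any 1 of the 4 libraries, and the other 5 did not and are described by gene below. The median log2 fold change was 0.37, against 0.01 over all tested genes. Without L-Pro/LIF replicate 1 there were 9 calls in place of 14. Of the 34 further hypoxia targets 8 rose and 5 fell, among them the glycogen branching enzyme Gbe1 (log2 fold change 1.15 ± 0.19, adjusted p = 0.00329), the histone demethylase Kdm3a (log2 fold change -1.13 ± 0.11, adjusted p = 0.000224) and the lipase inhibitor Angptl4 (log2 fold change -1.49 ± 0.18, adjusted p = 0.000679). The 8 that rose were 5 without FBS/LIF replicate 1, and the 5 that fell were 3 without L-Pro/LIF replicate 1.

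L-Pro/LIF against VitC/LIF set the additions against each other, and more of the listed genes rose here than in any other tested comparison. In L-Pro/LIF 20 of the 43 genes rose and 3 fell, against 16.8% called higher, 13.0% called lower and 29.8% called in all among tested genes. The genes that rose were all 3 transporters, all 4 genes of mitochondria and mitophagy, 3 of 9 genes of upper glycolysis, 3 of 6 of lower glycolysis, Egln1, Egln3, Pfkfb3, Ldha, Ddit4, Ankrd37 and Bhlhe40. Epas1, Hk1 and Pfkp fell. The median log2 fold change was 0.61, against 0.02 over all tested genes, and 16 of the 23 calls held without any 1 of the 4 libraries. Of the 34 further hypoxia targets 12 rose and 4 fell, and the largest changes were those of the lysyl oxidase Lox (log2 fold change 3.33 ± 0.61, adjusted p = 0.00368), P4ha1 (log2 fold change 2.05 ± 0.14, adjusted p = 2.24e-05), Ppfia4 (log2 fold change -2.00 ± 0.19, adjusted p = 0.000108) and Plod2 (log2 fold change 1.82 ± 0.10, adjusted p = 6.71e-06). Of these targets, fewer rose and fewer fell whichever 1 of the 4 libraries was left out. This comparison shares its VitC/LIF libraries with that of VitC/LIF over FBS/LIF and its L-Pro/LIF libraries with that of L-Pro/LIF over FBS/LIF.

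**Figure D2:**
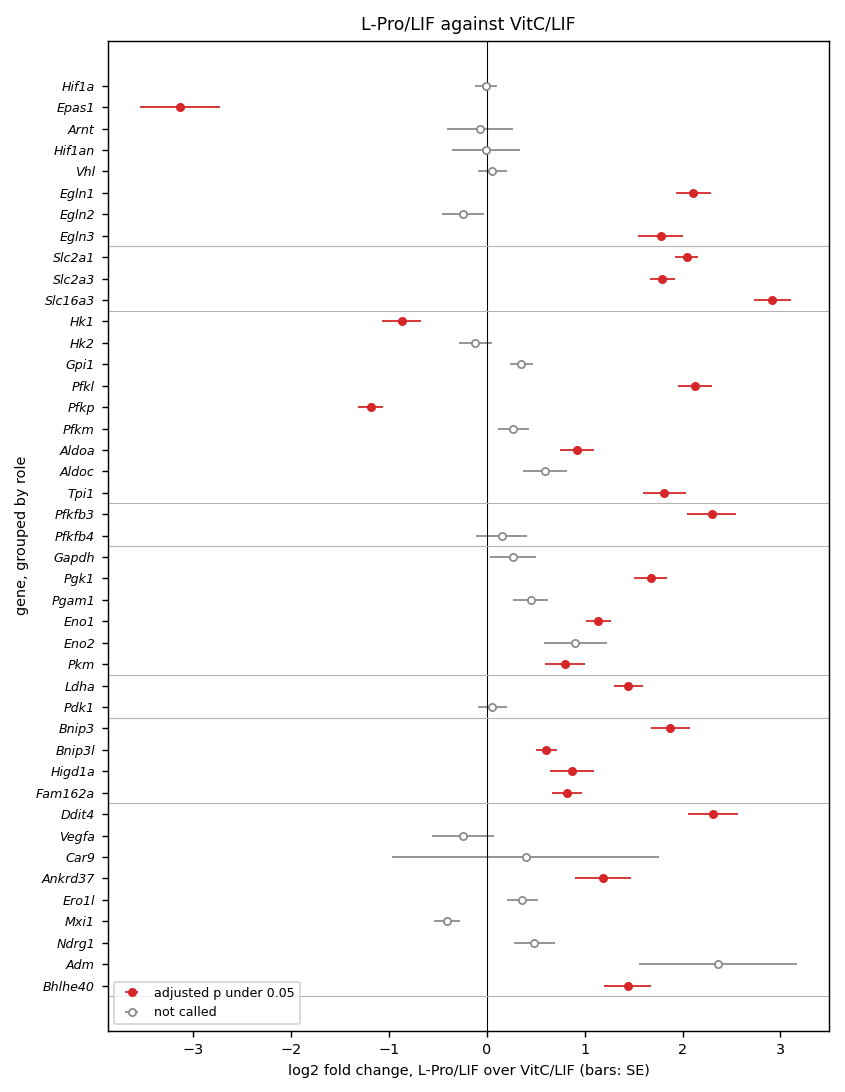
Log2 fold change of each of the 43 genes in L-Pro/LIF over VitC/LIF with its SE, grouped by role, filled where called and open where not. The called values run from -3.13 for Epas1 to 2.92 for Slc16a3, and 20 of the 23 lie above 0.

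2i/LIF against FBS/LIF gave calls in both directions. In 2i/LIF 13 of the 43 genes rose and 9 fell, against 12.5% called higher, 17.9% called lower and 30.4% called in all among tested genes. Genes of upper glycolysis rose in 6 of 9 cases and fell in none, with Hk1, Pfkp and the aldolase Aldoc in front. Slc2a1, Pfkfb3, Ddit4 and Pdk1, the kinase that inhibits pyruvate dehydrogenase, fell. The median log2 fold change was 0.13, against -0.04 over all tested genes. Of the 22 calls 11 held without any 1 of the 4 libraries, and there were 13 calls without 2i/LIF replicate 1, 13 without 2i/LIF replicate 2 and 14 without FBS/LIF replicate 2. Of the 34 further hypoxia targets 10 rose and 10 fell, among them the adenylate kinase Ak4 (log2 fold change 2.51 ± 0.15, adjusted p = 1.3e-05) and the carbonic anhydrase Car12 (log2 fold change -3.32 ± 0.33, adjusted p = 0.000133), and the 10 that rose were 6 without 2i/LIF replicate 1.

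2i/LIF against VitC/LIF compared media that both held LIF. In 2i/LIF 19 of the 43 genes rose and 2 fell, against 9.62% called higher, 14.9% called lower and 24.5% called in all among tested genes. Upper glycolysis held 8 of the genes that rose, out of 9, and lower glycolysis 4 of 6, among them Pkm, whose adjusted p in edgeR's test was 0.0659 with the replicate block. Hif1a and Pdk1 fell. The median log2 fold change was 0.54, against -0.05 over all tested genes, and 14 of the 21 calls held without any 1 of the 4 libraries. Without 2i/LIF replicate 1 there were 14 calls in place of 21. Of the 34 further hypoxia targets 11 rose and 8 fell, among them Ak4 (log2 fold change 1.72 ± 0.15, adjusted p = 9.25e-05) and Car12 (log2 fold change -3.38 ± 0.33, adjusted p = 0.000174). Fewer of these targets rose and fewer fell whichever 1 of the 4 libraries was left out.

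F/A against FBS/LIF followed the change towards epiblast-like culture. In F/A 8 of the 43 genes rose and 7 fell, against 24.4% called higher, 22.0% called lower and 46.4% called in all among tested genes, so that the share of listed genes called, 34.9%, was below that of all genes. The stress and growth genes Ndrg1, Ddit4 and Bhlhe40, Pfkfb3, Slc16a3, Egln1 and the muscle phosphofructokinase Pfkm rose and Pfkp, Pdk1 and Mxi1 fell, and these calls held without any 1 of the 4 libraries. The median log2 fold change was -0.01, against 0.05 over all tested genes. With mapped totals in place of TMM the split was 12 higher and 3 lower, and the median of all tested genes shifted to 0.25, so directions in F/A are relative to TMM scaling. Without F/A replicate 2, which leaves the shallow F/A replicate 1, there were 24 calls in place of 15, of which 13 were shared, and 9 genes rose and 15 fell. Of the 34 further hypoxia targets 10 rose and 11 fell, among them the lipoprotein receptor Vldlr (log2 fold change 1.76 ± 0.28, adjusted p = 0.00139) and Angptl4 (log2 fold change -3.76 ± 0.22, adjusted p = 6.54e-06), and the 10 that rose were 6 without FBS/LIF replicate 1.

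F/A was also compared with L-Pro/LIF. In F/A 5 of the 43 genes rose and 15 fell, against 11.1% called higher, 10.9% called lower and 22.0% called in all among tested genes. All 3 transporters, both genes of pyruvate fate, Bnip3 and 3 genes each of upper and lower glycolysis fell, and Ndrg1 rose. The median log2 fold change was -0.32, against -0.03 over all tested genes, which moved to 0.14 with mapped totals. The calls held without any 1 of the 4 libraries for 6 genes, Slc2a1, Slc2a3, Pfkp, Pdk1, Bnip3 and Ndrg1. There were 6 calls without L-Pro/LIF replicate 1, 10 without L-Pro/LIF replicate 2, 11 without F/A replicate 1 and 26 without F/A replicate 2. Of the 34 further hypoxia targets 1 rose, Vldlr (log2 fold change 1.96 ± 0.28, adjusted p = 0.00322), and 13 fell, among them Angptl4 (log2 fold change -2.27 ± 0.22, adjusted p = 0.000489), and those that fell numbered 2 without L-Pro/LIF replicate 1, 3 without F/A replicate 1 and 5 without L-Pro/LIF replicate 2.

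The alpha subunits of HIF and their partner came first among the genes of oxygen sensing. Hif1a, the broadly expressed alpha subunit, had 325 and 339 CPM in F/A, 259.7 and 243 CPM in L-Pro/LIF, 194 and 179.8 CPM in 2i/LIF, 266 and 242 CPM in VitC/LIF, and 257 and 244 CPM in FBS/LIF. Its libraries were highest in F/A and lowest in 2i/LIF, and neither overlapped with any other medium. Hif1a rose in F/A over FBS/LIF (log2 fold change 0.41 ± 0.11, adjusted p = 0.0183) and was called too in F/A over L-Pro/LIF (log2 fold change 0.40 ± 0.11, adjusted p = 0.0387). In 2i/LIF it fell over FBS/LIF (log2 fold change -0.42 ± 0.11, adjusted p = 0.0222) and over VitC/LIF (log2 fold change -0.44 ± 0.11, adjusted p = 0.0225). Epas1, which encodes HIF-2 alpha, had 13.1 and 5.40 CPM in F/A, 2.61 and 3.44 CPM in L-Pro/LIF, 17.4 and 15.3 CPM in 2i/LIF, 22.8 and 30.6 CPM in VitC/LIF, and 16.5 and 24.5 CPM in FBS/LIF. Both L-Pro/LIF libraries lay below every other library. Epas1 fell in L-Pro/LIF over FBS/LIF (log2 fold change -2.75 ± 0.40, adjusted p = 0.00167) and over VitC/LIF (log2 fold change -3.13 ± 0.41, adjusted p = 0.000637), fell in F/A over FBS/LIF (log2 fold change -1.20 ± 0.39, adjusted p = 0.0326) and rose in F/A over L-Pro/LIF (log2 fold change 1.56 ± 0.41, adjusted p = 0.0303). In FPKM, Hif1a made up 90.3% to 99.1% of the 2 alpha subunits in every library. Arnt, the beta subunit, had 47.7 and 25.8 CPM in F/A, 29.7 and 47.1 CPM in L-Pro/LIF, 32.1 and 35.1 CPM in 2i/LIF, 31.6 and 49.1 CPM in VitC/LIF, and 41.4 and 56.3 CPM in FBS/LIF. The media overlapped except that 2i/LIF lay below FBS/LIF, and Arnt was called in no comparison. The test missed its threshold in 2i/LIF over FBS/LIF for Hif1a without any 1 of the 4 libraries (adjusted p = 0.0772 to 0.168). Significance in F/A over FBS/LIF was lost for Hif1a without replicate 1 of FBS/LIF or replicate 2 of FBS/LIF or replicate 2 of F/A (adjusted p = 0.084, 0.119 and 0.0745) and for Epas1 without replicate 2 of FBS/LIF or replicate 2 of F/A (adjusted p = 0.146 and 0.0808). The threshold was missed in 2i/LIF over VitC/LIF for Hif1a without any 1 of the 4 libraries (adjusted p = 0.0706 to 0.169). Calls ended in F/A over L-Pro/LIF for Hif1a without any 1 of the 4 libraries (adjusted p = 0.0607 to 0.203) and for Epas1 without replicate 1 of L-Pro/LIF or replicate 1 of F/A or replicate 2 of L-Pro/LIF (adjusted p = 0.165, 0.146 and 0.0838).

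The enzymes that mark and destroy the alpha subunits varied more by gene. Egln1, the main prolyl hydroxylase and itself a HIF target, had 27.4 and 27.1 CPM in F/A, 42.5 and 41.0 CPM in L-Pro/LIF, 20.7 and 19.6 CPM in 2i/LIF, 7.95 and 11.4 CPM in VitC/LIF, and 12.8 and 15.1 CPM in FBS/LIF. Its order was L-Pro/LIF, F/A, 2i/LIF, FBS/LIF and VitC/LIF, with no overlap between neighbours. Egln1 rose in L-Pro/LIF over FBS/LIF (log2 fold change 1.58 ± 0.17, adjusted p = 0.000364) and over VitC/LIF (log2 fold change 2.11 ± 0.18, adjusted p = 6.02e-05), in 2i/LIF over FBS/LIF (log2 fold change 0.53 ± 0.17, adjusted p = 0.0449) and over VitC/LIF (log2 fold change 1.06 ± 0.17, adjusted p = 0.00265) and in F/A over FBS/LIF (log2 fold change 0.97 ± 0.17, adjusted p = 0.00241), and fell in F/A over L-Pro/LIF (log2 fold change -0.61 ± 0.17, adjusted p = 0.0341). Egln3, the most strongly hypoxia-induced of the family, had 7.48 and 6.05 CPM in F/A, 8.48 and 7.82 CPM in L-Pro/LIF, 2.38 and 2.63 CPM in 2i/LIF, 2.10 and 2.66 CPM in VitC/LIF, and 4.99 and 5.48 CPM in FBS/LIF. It was lowest in 2i/LIF and VitC/LIF. Egln3 rose in L-Pro/LIF over VitC/LIF (log2 fold change 1.77 ± 0.23, adjusted p = 0.000586) and fell in 2i/LIF over FBS/LIF (log2 fold change -1.06 ± 0.23, adjusted p = 0.00785). Egln2, a hydroxylase that low oxygen does not induce, had 22.9 and 40.0 CPM in F/A, 38.3 and 43.3 CPM in L-Pro/LIF, 51.9 and 50.6 CPM in 2i/LIF, 48.0 and 48.6 CPM in VitC/LIF, and 41.1 and 39.8 CPM in FBS/LIF and was called in no comparison. Both 2i/LIF libraries were the highest and F/A replicate 1 was the lowest. In FPKM Egln2 was the most abundant hydroxylase in every library, at 53.7% to 88.7% of the family, while Egln1 took 8.33% to 34.6% and Egln3 2.75% to 12.4%. Vhl, the substrate receptor of the ubiquitin ligase, had 20.0 and 24.9 CPM in F/A, 25.4 and 23.6 CPM in L-Pro/LIF, 44.2 and 39.2 CPM in 2i/LIF, 23.7 and 23.4 CPM in VitC/LIF, and 26.7 and 21.9 CPM in FBS/LIF. The 2i/LIF libraries stood above all others. Vhl rose in 2i/LIF over FBS/LIF (log2 fold change 0.78 ± 0.15, adjusted p = 0.00459) and over VitC/LIF (log2 fold change 0.82 ± 0.15, adjusted p = 0.00439). Hif1an, the asparaginyl hydroxylase that blocks coactivator binding, had 60.6 and 42.8 CPM in F/A, 22.9 and 45.4 CPM in L-Pro/LIF, 23.4 and 25.3 CPM in 2i/LIF, 26.1 and 42.7 CPM in VitC/LIF, and 32.4 and 43.2 CPM in FBS/LIF, with replicate 2 above replicate 1 in every medium except F/A, and was called in no comparison. A call was lost in 2i/LIF over FBS/LIF for Egln1 without any 1 of the 4 libraries (adjusted p = 0.072 to 0.234) and for Egln3 without replicate 1 of 2i/LIF (adjusted p = 0.0581). Adjusted p rose past the threshold in F/A over L-Pro/LIF for Egln1 without replicate 1 of L-Pro/LIF or replicate 1 of F/A or replicate 2 of L-Pro/LIF (adjusted p = 0.15, 0.112 and 0.1). Over FBS/LIF, 24.4% of all tested genes were called higher and 22.0% lower in F/A. The same shares were 13.7% and 10.3% in L-Pro/LIF and 12.5% and 17.9% in 2i/LIF. Of 13 further genes of HIF degradation and cofactors, 5 rose and 3 fell in F/A over FBS/LIF. In L-Pro/LIF over FBS/LIF 1 rose and none fell, and in 2i/LIF over FBS/LIF 3 rose and 1 fell. Arnt2, a paralog of Arnt, rose in F/A over FBS/LIF (log2 fold change 2.71 ± 0.25, adjusted p = 8.03e-05) and in L-Pro/LIF over FBS/LIF (log2 fold change 1.54 ± 0.25, adjusted p = 0.00259). Whichever 1 of the 4 libraries was left out, 1 of these genes rose in 2i/LIF. In F/A 3 rose without FBS/LIF replicate 1 or F/A replicate 1, and the genes that fell numbered 0 without FBS/LIF replicate 1, 1 without F/A replicate 1 or FBS/LIF replicate 2 and 5 without F/A replicate 2.

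**Figure D3:**
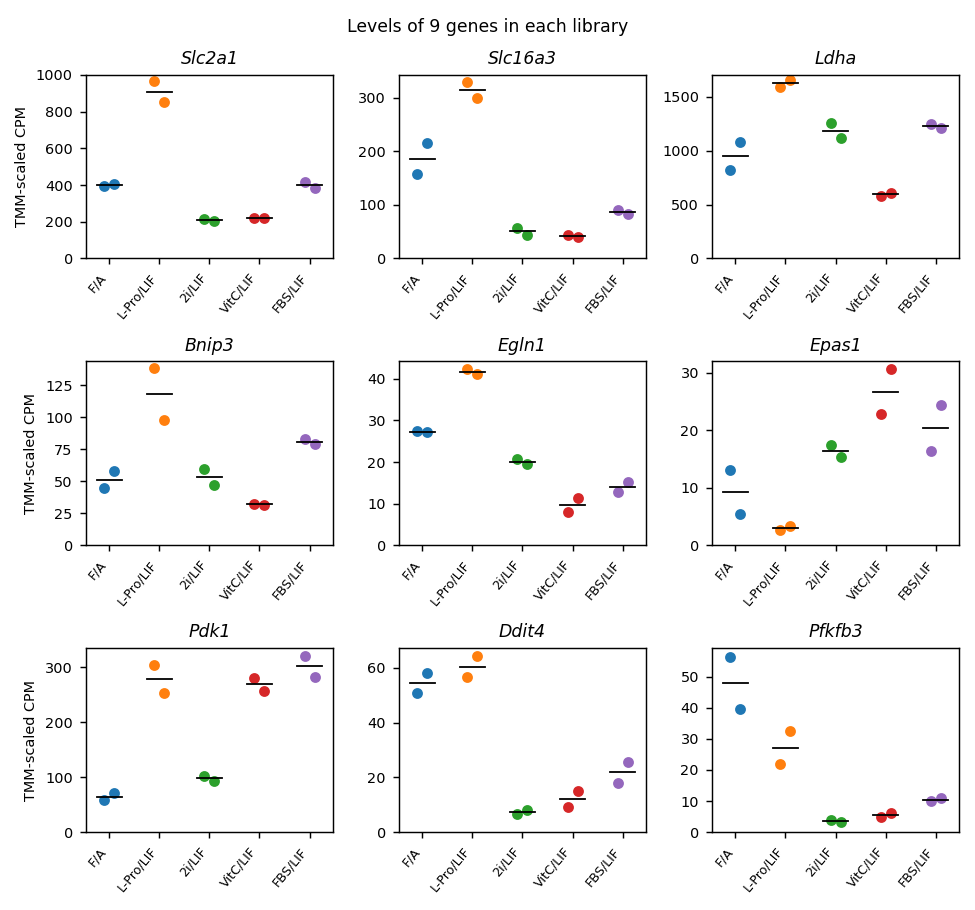
CPM of 9 genes in each library of the main experiment, with a point per library and a line at the mean of the 2 libraries of a medium, and each vertical axis starting at 0. Slc2a1, Slc16a3 and Egln1 are highest in L-Pro/LIF, Ldha and Bnip3 are lowest in VitC/LIF, and Pdk1 is low in F/A and 2i/LIF.

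The transporters that bring glucose in and carry lactate out were all highest in L-Pro/LIF. Slc2a1, the basal glucose transporter GLUT1, had 393 and 403 CPM in F/A, 964 and 854 CPM in L-Pro/LIF, 217 and 206 CPM in 2i/LIF, 218 and 222 CPM in VitC/LIF, and 414 and 386 CPM in FBS/LIF. L-Pro/LIF was more than 2-fold above every other medium, F/A and FBS/LIF overlapped, and 2i/LIF and VitC/LIF lay lowest. Slc2a1 rose in L-Pro/LIF over FBS/LIF (log2 fold change 1.18 ± 0.12, adjusted p = 0.000218) and over VitC/LIF (log2 fold change 2.04 ± 0.12, adjusted p = 9.65e-06) and fell in 2i/LIF over FBS/LIF (log2 fold change -0.92 ± 0.12, adjusted p = 0.000474) and in F/A over L-Pro/LIF (log2 fold change -1.19 ± 0.12, adjusted p = 0.000489). Slc2a3, the high-affinity glucose transporter GLUT3, had 1275 and 1482 CPM in F/A, 3230 and 2841 CPM in L-Pro/LIF, 1509 and 1528 CPM in 2i/LIF, 921 and 831 CPM in VitC/LIF, and 1157 and 1088 CPM in FBS/LIF. L-Pro/LIF was again highest, with VitC/LIF the lowest. Slc2a3 rose in L-Pro/LIF over FBS/LIF (log2 fold change 1.44 ± 0.13, adjusted p = 0.000148) and over VitC/LIF (log2 fold change 1.79 ± 0.13, adjusted p = 3.08e-05), rose in 2i/LIF over FBS/LIF (log2 fold change 0.44 ± 0.13, adjusted p = 0.0308) and over VitC/LIF (log2 fold change 0.79 ± 0.13, adjusted p = 0.00242), and fell in F/A over L-Pro/LIF (log2 fold change -1.14 ± 0.13, adjusted p = 0.000977). Slc2a1 and Slc2a3 thus moved in opposite directions in 2i/LIF, and Slc2a3 took 63.9% to 81.9% of their summed FPKM, with the highest share in 2i/LIF. Slc16a3, the lactate exporter MCT4, had 157 and 215 CPM in F/A, 329 and 299 CPM in L-Pro/LIF, 56.7 and 44.5 CPM in 2i/LIF, 43.0 and 40.1 CPM in VitC/LIF, and 90.8 and 83.0 CPM in FBS/LIF. The order was L-Pro/LIF, F/A, FBS/LIF, 2i/LIF and VitC/LIF, without overlap. Slc16a3 rose in L-Pro/LIF over FBS/LIF (log2 fold change 1.85 ± 0.18, adjusted p = 0.000193) and over VitC/LIF (log2 fold change 2.92 ± 0.18, adjusted p = 1.52e-05) and in F/A over FBS/LIF (log2 fold change 1.10 ± 0.17, adjusted p = 0.00135), and fell in 2i/LIF over FBS/LIF (log2 fold change -0.78 ± 0.17, adjusted p = 0.00949) and in F/A over L-Pro/LIF (log2 fold change -0.75 ± 0.17, adjusted p = 0.0196). The 2 promoter matches of Slc16a3 shown above lie 27 and 14 bases before the gene start. In 2i/LIF over FBS/LIF the call was lost for Slc2a3 without any 1 of the 4 libraries (adjusted p = 0.114 to 0.179) and for Slc16a3 without replicate 1 of FBS/LIF or replicate 2 of 2i/LIF (adjusted p = 0.0617 and 0.0942). The test missed its threshold in F/A over L-Pro/LIF for Slc16a3 without replicate 1 of L-Pro/LIF or replicate 1 of F/A or replicate 2 of L-Pro/LIF (adjusted p = 0.126, 0.0729 and 0.0631).

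Hexokinases trap glucose in the cell, and glucose phosphate isomerase follows. Hk1, the housekeeping hexokinase, had 14.1 and 10.4 CPM in F/A, 15.3 and 14.9 CPM in L-Pro/LIF, 54.9 and 56.6 CPM in 2i/LIF, 28.6 and 26.6 CPM in VitC/LIF, and 11.0 and 16.3 CPM in FBS/LIF. 2i/LIF was highest and VitC/LIF second, and the other 3 media lay together at 10.4 to 16.3 CPM. Hk1 rose in 2i/LIF over FBS/LIF (log2 fold change 2.03 ± 0.20, adjusted p = 0.000131) and over VitC/LIF (log2 fold change 1.01 ± 0.20, adjusted p = 0.00608) and fell in L-Pro/LIF over VitC/LIF (log2 fold change -0.87 ± 0.20, adjusted p = 0.0103). Hk2, the inducible hexokinase, ran from 224 to 435 CPM and was called in no comparison, yet it made up 81.7% to 95.0% of the summed FPKM of Hk1 and Hk2. Gpi1 had 238 and 251 CPM in F/A, 276 and 283 CPM in L-Pro/LIF, 366 and 371 CPM in 2i/LIF, 221 and 218 CPM in VitC/LIF, and 219 and 258 CPM in FBS/LIF. Both 2i/LIF libraries stood above all others. Gpi1 rose in 2i/LIF over FBS/LIF (log2 fold change 0.63 ± 0.12, adjusted p = 0.00434) and over VitC/LIF (log2 fold change 0.75 ± 0.12, adjusted p = 0.00222). Significance in L-Pro/LIF over VitC/LIF was lost for Hk1 without replicate 1 of VitC/LIF or replicate 2 of L-Pro/LIF (adjusted p = 0.061 and 0.0618).

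Phosphofructokinase, which commits sugar to glycolysis, changed its isoenzyme with the medium. Pfkl, the liver form, had 198 and 282 CPM in F/A, 471 and 423 CPM in L-Pro/LIF, 278 and 269 CPM in 2i/LIF, 107 and 97.8 CPM in VitC/LIF, and 237 and 249 CPM in FBS/LIF. L-Pro/LIF was highest and VitC/LIF lowest, and F/A spanned FBS/LIF and 2i/LIF. Pfkl rose in L-Pro/LIF over FBS/LIF (log2 fold change 0.88 ± 0.17, adjusted p = 0.00634) and over VitC/LIF (log2 fold change 2.13 ± 0.17, adjusted p = 5.52e-05) and in 2i/LIF over VitC/LIF (log2 fold change 1.42 ± 0.17, adjusted p = 0.000526), and fell in F/A over L-Pro/LIF (log2 fold change -0.89 ± 0.17, adjusted p = 0.00989). Pfkp, the platelet form, had 23.5 and 22.9 CPM in F/A, 76.2 and 60.6 CPM in L-Pro/LIF, 383 and 354 CPM in 2i/LIF, 156 and 156 CPM in VitC/LIF, and 121 and 122 CPM in FBS/LIF. The order was 2i/LIF, then VitC/LIF, then FBS/LIF, then L-Pro/LIF, then F/A, without overlap. Pfkp rose in 2i/LIF over FBS/LIF (log2 fold change 1.60 ± 0.13, adjusted p = 4.33e-05) and over VitC/LIF (log2 fold change 1.24 ± 0.13, adjusted p = 0.000207), and fell in L-Pro/LIF over FBS/LIF (log2 fold change -0.83 ± 0.12, adjusted p = 0.00185) and over VitC/LIF (log2 fold change -1.19 ± 0.13, adjusted p = 0.00021) and in F/A over FBS/LIF (log2 fold change -2.40 ± 0.13, adjusted p = 4.6e-06) and over L-Pro/LIF (log2 fold change -1.56 ± 0.13, adjusted p = 0.000218). Pfkm, the muscle form, had 36.3 and 50.9 CPM in F/A, 37.8 and 41.4 CPM in L-Pro/LIF, 49.5 and 45.7 CPM in 2i/LIF, 31.4 and 34.4 CPM in VitC/LIF, and 25.2 and 23.4 CPM in FBS/LIF. It was lowest in FBS/LIF. Pfkm rose in F/A over FBS/LIF (log2 fold change 0.85 ± 0.16, adjusted p = 0.00361), where it was 0.48 without F/A replicate 2 and still called, and rose in L-Pro/LIF over FBS/LIF (log2 fold change 0.70 ± 0.16, adjusted p = 0.0144) and in 2i/LIF over FBS/LIF (log2 fold change 0.97 ± 0.16, adjusted p = 0.00234) and over VitC/LIF (log2 fold change 0.54 ± 0.16, adjusted p = 0.0416). In FPKM, Pfkl made up 75.8% and 77.2% of the 3 forms in F/A, 77.4% and 78.1% in L-Pro/LIF, 33.9% and 35.0% in 2i/LIF, 28.2% and 29.2% in VitC/LIF, and 53.6% and 57.9% in FBS/LIF. Pfkp made up 6.33% and 6.84% in F/A, 13.1% and 14.5% in L-Pro/LIF, 57.9% and 58.5% in 2i/LIF, 57.4% and 61.0% in VitC/LIF, and 35.0% and 39.1% in FBS/LIF. Pfkl was thus the main form in F/A, L-Pro/LIF and FBS/LIF and Pfkp in 2i/LIF and VitC/LIF. The threshold was missed in L-Pro/LIF over FBS/LIF for Pfkm without any 1 of the 4 libraries (adjusted p = 0.0696 to 0.0965) and for Pfkl without replicate 1 of FBS/LIF or replicate 1 of L-Pro/LIF (adjusted p = 0.0589 and 0.0693). Calls ended in 2i/LIF over VitC/LIF for Pfkm without any 1 of the 4 libraries (adjusted p = 0.122 to 0.228). A call was lost in F/A over L-Pro/LIF for Pfkl without replicate 1 of L-Pro/LIF (adjusted p = 0.0848).

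**Figure D4:**
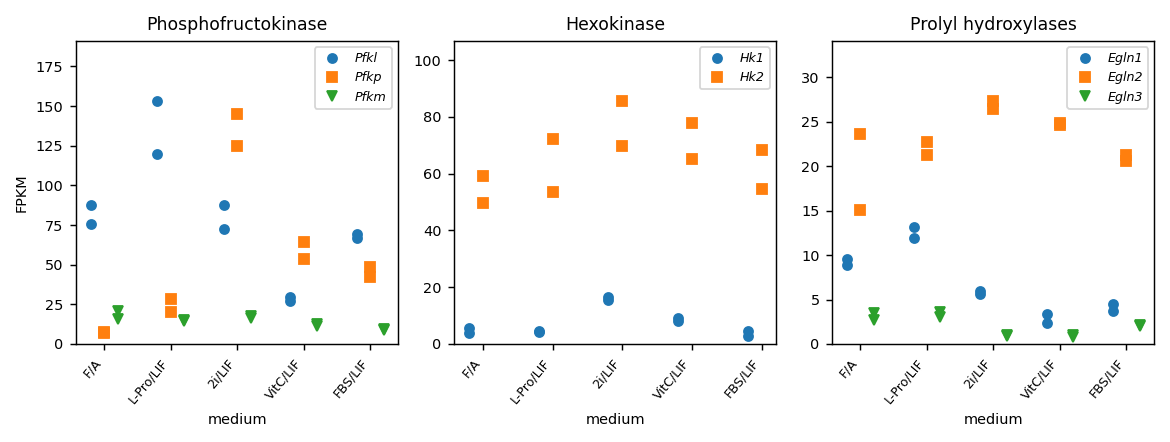
FPKM of the phosphofructokinase, hexokinase and HIF prolyl hydroxylase genes in each library, a point per library and a symbol per gene, with media along the horizontal axis. Pfkl lies above Pfkp in F/A, L-Pro/LIF and FBS/LIF and below it in 2i/LIF and VitC/LIF, while Hk2 and Egln2 lead their families in every library.

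Aldolase, triose phosphate isomerase and the regulators of phosphofructokinase complete upper glycolysis. Aldoa, the main aldolase, had 510 and 704 CPM in F/A, 972 and 808 CPM in L-Pro/LIF, 1246 and 1150 CPM in 2i/LIF, 496 and 446 CPM in VitC/LIF, and 779 and 736 CPM in FBS/LIF. 2i/LIF was highest and VitC/LIF lowest. Aldoa rose in 2i/LIF over FBS/LIF (log2 fold change 0.66 ± 0.17, adjusted p = 0.0192) and over VitC/LIF (log2 fold change 1.35 ± 0.17, adjusted p = 0.000783) and in L-Pro/LIF over VitC/LIF (log2 fold change 0.92 ± 0.17, adjusted p = 0.0043). Aldoc, the brain form, had 9.64 and 13.1 CPM in F/A, 16.2 and 11.0 CPM in L-Pro/LIF, 31.1 and 28.2 CPM in 2i/LIF, 9.49 and 8.50 CPM in VitC/LIF, and 11.0 and 9.47 CPM in FBS/LIF, at most 1.81% of the summed FPKM of both aldolases. The 2i/LIF libraries stood above all others. Aldoc rose in 2i/LIF over FBS/LIF (log2 fold change 1.53 ± 0.22, adjusted p = 0.00111) and over VitC/LIF (log2 fold change 1.72 ± 0.23, adjusted p = 0.000847). Tpi1 had 274 and 448 CPM in F/A, 764 and 665 CPM in L-Pro/LIF, 596 and 527 CPM in 2i/LIF, 203 and 203 CPM in VitC/LIF, and 416 and 368 CPM in FBS/LIF. L-Pro/LIF was highest and VitC/LIF lowest, and F/A replicate 1 lay well below replicate 2. Tpi1 rose in L-Pro/LIF over FBS/LIF (log2 fold change 0.86 ± 0.21, adjusted p = 0.0199) and over VitC/LIF (log2 fold change 1.81 ± 0.22, adjusted p = 0.000431) and in 2i/LIF over VitC/LIF (log2 fold change 1.47 ± 0.22, adjusted p = 0.00155), and fell in F/A over L-Pro/LIF (log2 fold change -0.99 ± 0.21, adjusted p = 0.0166). Pfkfb3, which makes the fructose bisphosphate that activates phosphofructokinase, had 56.4 and 39.5 CPM in F/A, 21.9 and 32.4 CPM in L-Pro/LIF, 3.87 and 3.25 CPM in 2i/LIF, 4.86 and 6.19 CPM in VitC/LIF, and 10.1 and 10.8 CPM in FBS/LIF. The order was F/A, L-Pro/LIF, FBS/LIF, VitC/LIF and 2i/LIF, without overlap. Pfkfb3 rose in F/A over FBS/LIF (log2 fold change 2.19 ± 0.25, adjusted p = 0.000226) and over L-Pro/LIF (log2 fold change 0.82 ± 0.23, adjusted p = 0.0405) and in L-Pro/LIF over FBS/LIF (log2 fold change 1.37 ± 0.24, adjusted p = 0.00406) and over VitC/LIF (log2 fold change 2.30 ± 0.25, adjusted p = 0.000267), and fell in 2i/LIF over FBS/LIF (log2 fold change -1.55 ± 0.26, adjusted p = 0.00226). With the replicate block, the adjusted p of edgeR's test for Pfkfb3 in F/A over L-Pro/LIF was 0.0509. Pfkfb4, a paralog with the same pair of activities, ran from 3.00 to 5.72 CPM and was called in no comparison. Adjusted p rose past the threshold in L-Pro/LIF over FBS/LIF for Tpi1 without any 1 of the 4 libraries (adjusted p = 0.058 to 0.148). In 2i/LIF over FBS/LIF the call was lost for Aldoa without any 1 of the 4 libraries (adjusted p = 0.0705 to 0.126). The test missed its threshold in L-Pro/LIF over VitC/LIF for Aldoa without replicate 1 of L-Pro/LIF (adjusted p = 0.0595). Significance in F/A over L-Pro/LIF was lost for Tpi1 without replicate 1 of L-Pro/LIF or replicate 2 of L-Pro/LIF (adjusted p = 0.12 and 0.0522) and for Pfkfb3 without replicate 1 of L-Pro/LIF or replicate 1 of F/A (adjusted p = 0.25 and 0.221).

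Lower glycolysis holds both the gene with the highest estimated FPKM of the list and those with the lowest shares of unique hits. Pkm, the pyruvate kinase, had the highest median FPKM of the 43 genes (1641), followed by Ldha (856), while Car9 (0.240) and Adm (0.234) had the lowest. Unique hits, fragments that fit a single gene, made up a median of 11.1% of the estimate for Gapdh, 35.7% for Pgk1, 36.3% for Pgam1 and 39.8% for Eno1, so the levels of these 4 genes are uncertain. Their rank by FPKM is uncertain too. Gapdh ran from 443.6 to 790.5 CPM and was called in no comparison. Pgk1, the first enzyme to make ATP, had 622 and 873 CPM in F/A, 1544 and 1346 CPM in L-Pro/LIF, 1062 and 999 CPM in 2i/LIF, 464 and 444 CPM in VitC/LIF, and 825 and 746 CPM in FBS/LIF. L-Pro/LIF was highest and VitC/LIF lowest. Pgk1 rose in L-Pro/LIF over FBS/LIF (log2 fold change 0.88 ± 0.17, adjusted p = 0.00644) and over VitC/LIF (log2 fold change 1.67 ± 0.17, adjusted p = 0.000189) and in 2i/LIF over VitC/LIF (log2 fold change 1.18 ± 0.17, adjusted p = 0.00133), and fell in F/A over L-Pro/LIF (log2 fold change -0.95 ± 0.17, adjusted p = 0.00798). On unique hits alone the log2 fold change in L-Pro/LIF over VitC/LIF was 1.67, adjusted p = 5.28e-05. Pgam1, phosphoglycerate mutase, had 604 and 872 CPM in F/A, 1280 and 1105 CPM in L-Pro/LIF, 1270 and 1165 CPM in 2i/LIF, 894 and 855 CPM in VitC/LIF, and 1173 and 1047 CPM in FBS/LIF. F/A and VitC/LIF lay lowest and overlapped. Pgam1 fell in F/A over FBS/LIF (log2 fold change -0.59 ± 0.18, adjusted p = 0.0259) and over L-Pro/LIF (log2 fold change -0.69 ± 0.18, adjusted p = 0.029). The threshold was missed in L-Pro/LIF over FBS/LIF for Pgk1 without replicate 1 of L-Pro/LIF or replicate 2 of FBS/LIF (adjusted p = 0.0796 and 0.0599). Calls ended in F/A over FBS/LIF for Pgam1 without replicate 1 of FBS/LIF or replicate 1 of F/A or replicate 2 of FBS/LIF (adjusted p = 0.142, 0.0727 and 0.0532). A call was lost in F/A over L-Pro/LIF for Pgk1 without replicate 1 of L-Pro/LIF (adjusted p = 0.0806) and for Pgam1 without replicate 1 of L-Pro/LIF or replicate 1 of F/A or replicate 2 of L-Pro/LIF (adjusted p = 0.186, 0.072 and 0.0695).

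The last steps to pyruvate followed. Eno1, the main enolase, had 937 and 926 CPM in F/A, 1059 and 1268 CPM in L-Pro/LIF, 786 and 821 CPM in 2i/LIF, 545 and 511 CPM in VitC/LIF, and 847 and 943 CPM in FBS/LIF. VitC/LIF lay below every other library. Eno1 rose in L-Pro/LIF over VitC/LIF (log2 fold change 1.14 ± 0.13, adjusted p = 0.0003) and in 2i/LIF over VitC/LIF (log2 fold change 0.61 ± 0.13, adjusted p = 0.00945), and on unique hits alone the first log2 fold change was 1.15, adjusted p = 7.29e-05. Eno2, the neuronal enolase, had 1.77 and 2.40 CPM in F/A, 5.14 and 3.71 CPM in L-Pro/LIF, 6.78 and 5.72 CPM in 2i/LIF, 2.93 and 1.79 CPM in VitC/LIF, and 2.54 and 1.97 CPM in FBS/LIF, at most 0.716% of the summed FPKM of both enolases. The 2i/LIF libraries were highest. Eno2 rose in 2i/LIF over FBS/LIF (log2 fold change 1.47 ± 0.32, adjusted p = 0.00912) and over VitC/LIF (log2 fold change 1.40 ± 0.32, adjusted p = 0.0142). Pkm had 1830 and 2838 CPM in F/A, 4322 and 4174 CPM in L-Pro/LIF, 4307 and 3406 CPM in 2i/LIF, 2438 and 2446 CPM in VitC/LIF, and 4095 and 3419 CPM in FBS/LIF. F/A and VitC/LIF lay below the other 3 media, with F/A replicate 1 the lowest library. Pkm fell in F/A over FBS/LIF (log2 fold change -0.69 ± 0.21, adjusted p = 0.0259) and over L-Pro/LIF (log2 fold change -0.86 ± 0.21, adjusted p = 0.0235), and rose in L-Pro/LIF over VitC/LIF (log2 fold change 0.80 ± 0.21, adjusted p = 0.0197) and in 2i/LIF over VitC/LIF (log2 fold change 0.66 ± 0.21, adjusted p = 0.0495). Adjusted p rose past the threshold in 2i/LIF over FBS/LIF for Eno2 without replicate 1 of 2i/LIF or replicate 2 of FBS/LIF (adjusted p = 0.0598 and 0.0747). In F/A over FBS/LIF the call was lost for Pkm without replicate 1 of FBS/LIF or replicate 1 of F/A (adjusted p = 0.156 and 0.0803). The test missed its threshold in L-Pro/LIF over VitC/LIF for Pkm without any 1 of the 4 libraries (adjusted p = 0.0736 to 0.123). Significance in 2i/LIF over VitC/LIF was lost for Eno1 and Pkm without any 1 of the 4 libraries (adjusted p = 0.0562 to 0.309) and for Eno2 without replicate 1 of 2i/LIF or replicate 2 of VitC/LIF (adjusted p = 0.0883 and 0.11). The threshold was missed in F/A over L-Pro/LIF for Pkm without replicate 1 of L-Pro/LIF or replicate 1 of F/A or replicate 2 of L-Pro/LIF (adjusted p = 0.133, 0.0603 and 0.0787). Among all tested genes, 13.7% were called higher and 10.3% lower in L-Pro/LIF over FBS/LIF. These shares were 12.5% and 17.9% in 2i/LIF and 24.4% and 22.0% in F/A over FBS/LIF. Of 35 further enzymes of glycolysis and pyruvate use that were tested, 3 rose and 6 fell in L-Pro/LIF over FBS/LIF. In 2i/LIF over FBS/LIF 5 rose and 6 fell, and in F/A over FBS/LIF 4 rose and 9 fell. Depending on which 1 of the libraries compared was left out, 1 to 2 rose and 1 to 3 fell in L-Pro/LIF, and 2 to 4 rose and 1 to 2 fell in 2i/LIF. In F/A 1 rose and 5 fell without FBS/LIF replicate 1, 2 rose without FBS/LIF replicate 2 and 11 fell without F/A replicate 2. Tigar, a phosphatase that lowers fructose bisphosphate, fell in L-Pro/LIF over FBS/LIF (log2 fold change -0.97 ± 0.11, adjusted p = 0.000485) and in F/A over FBS/LIF (log2 fold change -1.10 ± 0.11, adjusted p = 0.000124), and these calls held whichever 1 library was left out.

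The genes that decide the fate of pyruvate both fell in F/A over L-Pro/LIF but did not move together in every comparison. Ldha, which turns pyruvate into lactate, had 818 and 1083 CPM in F/A, 1594 and 1652 CPM in L-Pro/LIF, 1252 and 1119 CPM in 2i/LIF, 583 and 607 CPM in VitC/LIF, and 1245 and 1213 CPM in FBS/LIF. VitC/LIF lay below every other library and L-Pro/LIF above, while F/A lay below FBS/LIF and 2i/LIF. Ldha rose in L-Pro/LIF over VitC/LIF (log2 fold change 1.45 ± 0.15, adjusted p = 0.000192) and in 2i/LIF over VitC/LIF (log2 fold change 0.99 ± 0.15, adjusted p = 0.0016) and fell in F/A over L-Pro/LIF (log2 fold change -0.77 ± 0.15, adjusted p = 0.0105). Pdk1, which inhibits pyruvate dehydrogenase, had 58.2 and 70.6 CPM in F/A, 304 and 253 CPM in L-Pro/LIF, 102 and 93.9 CPM in 2i/LIF, 281 and 256 CPM in VitC/LIF, and 321 and 282 CPM in FBS/LIF. F/A was lowest and 2i/LIF next, and L-Pro/LIF overlapped with VitC/LIF and with FBS/LIF at 253 to 321 CPM. Pdk1 fell in F/A over FBS/LIF (log2 fold change -2.23 ± 0.15, adjusted p = 1.68e-05) and over L-Pro/LIF (log2 fold change -2.11 ± 0.15, adjusted p = 9.62e-05) and in 2i/LIF over FBS/LIF (log2 fold change -1.62 ± 0.15, adjusted p = 9.33e-05) and over VitC/LIF (log2 fold change -1.45 ± 0.15, adjusted p = 0.000241). Both are HIF targets, and in 2i/LIF over VitC/LIF Ldha rose while Pdk1 fell. Calls ended in F/A over L-Pro/LIF for Ldha without replicate 1 of L-Pro/LIF or replicate 2 of L-Pro/LIF (adjusted p = 0.0785 and 0.057).

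Genes of mitochondria and mitophagy were next. Bnip3, a receptor that sends mitochondria to autophagy, had 44.8 and 57.8 CPM in F/A, 138 and 98.3 CPM in L-Pro/LIF, 59.9 and 47.5 CPM in 2i/LIF, 32.6 and 31.9 CPM in VitC/LIF, and 83.1 and 79.3 CPM in FBS/LIF. L-Pro/LIF was highest, FBS/LIF second and VitC/LIF lowest, and F/A and 2i/LIF overlapped. Bnip3 rose in L-Pro/LIF over VitC/LIF (log2 fold change 1.88 ± 0.20, adjusted p = 0.000217) and in 2i/LIF over VitC/LIF (log2 fold change 0.74 ± 0.19, adjusted p = 0.0254), and fell in 2i/LIF over FBS/LIF (log2 fold change -0.60 ± 0.19, adjusted p = 0.0462), in F/A over FBS/LIF (log2 fold change -0.66 ± 0.19, adjusted p = 0.023) and in F/A over L-Pro/LIF (log2 fold change -1.20 ± 0.20, adjusted p = 0.00547). The fall in 2i/LIF over FBS/LIF was not called on unique hits (log2 fold change -0.54, adjusted p = 0.0619). Bnip3l, its paralog NIX, had 128 and 138 CPM in F/A, 160 and 144 CPM in L-Pro/LIF, 122 and 114 CPM in 2i/LIF, 105 and 94.7 CPM in VitC/LIF, and 110.2 and 109 CPM in FBS/LIF. L-Pro/LIF was highest and VitC/LIF lowest. Bnip3l rose in L-Pro/LIF over FBS/LIF (log2 fold change 0.47 ± 0.11, adjusted p = 0.0144) and over VitC/LIF (log2 fold change 0.61 ± 0.11, adjusted p = 0.00324). Fam162a, a HIF-induced mitochondrial protein, had 39.4 and 50.2 CPM in F/A, 70.1 and 56.6 CPM in L-Pro/LIF, 29.0 and 27.8 CPM in 2i/LIF, 36.8 and 35.2 CPM in VitC/LIF, and 52.0 and 45.6 CPM in FBS/LIF. The 2i/LIF libraries lay below all others. Fam162a rose in L-Pro/LIF over VitC/LIF (log2 fold change 0.82 ± 0.16, adjusted p = 0.00459) and fell in 2i/LIF over FBS/LIF (log2 fold change -0.78 ± 0.16, adjusted p = 0.00573). Higd1a, which acts on the respiratory chain, ran from 27.4 to 64.1 CPM and rose in L-Pro/LIF over VitC/LIF alone (log2 fold change 0.87 ± 0.22, adjusted p = 0.0186). A call was lost in L-Pro/LIF over FBS/LIF for Bnip3l without replicate 1 of FBS/LIF or replicate 1 of L-Pro/LIF or replicate 2 of FBS/LIF (adjusted p = 0.0899, 0.16 and 0.0941). Adjusted p rose past the threshold in 2i/LIF over FBS/LIF for Bnip3 without any 1 of the 4 libraries (adjusted p = 0.0716 to 0.271) and for Fam162a without replicate 2 of 2i/LIF (adjusted p = 0.0522). In F/A over FBS/LIF the call was lost for Bnip3 without replicate 1 of FBS/LIF or replicate 1 of F/A or replicate 2 of FBS/LIF (adjusted p = 0.096, 0.12 and 0.0606). The test missed its threshold in L-Pro/LIF over VitC/LIF for Higd1a without any 1 of the 4 libraries (adjusted p = 0.0578 to 0.12), for Bnip3l without replicate 1 of L-Pro/LIF or replicate 2 of VitC/LIF (adjusted p = 0.0522 and 0.0571) and for Fam162a without replicate 1 of L-Pro/LIF (adjusted p = 0.0604). Significance in 2i/LIF over VitC/LIF was lost for Bnip3 without replicate 1 of 2i/LIF or replicate 1 of VitC/LIF or replicate 2 of VitC/LIF (adjusted p = 0.185, 0.117 and 0.135).

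Genes of growth control and stress came next. Ddit4, the mTORC1 inhibitor REDD1, had 50.9 and 58.0 CPM in F/A, 56.6 and 64.2 CPM in L-Pro/LIF, 6.52 and 7.96 CPM in 2i/LIF, 9.27 and 15.1 CPM in VitC/LIF, and 17.9 and 25.7 CPM in FBS/LIF. F/A and L-Pro/LIF overlapped with each other above all other libraries, and 2i/LIF was lowest. Ddit4 rose in F/A over FBS/LIF (log2 fold change 1.32 ± 0.25, adjusted p = 0.00313) and in L-Pro/LIF over FBS/LIF (log2 fold change 1.47 ± 0.25, adjusted p = 0.00323) and over VitC/LIF (log2 fold change 2.31 ± 0.26, adjusted p = 0.000274), and fell in 2i/LIF over FBS/LIF (log2 fold change -1.59 ± 0.26, adjusted p = 0.00199). Bhlhe40, a transcriptional repressor that HIF induces, had 30.1 and 26.2 CPM in F/A, 25.2 and 31.7 CPM in L-Pro/LIF, 6.25 and 8.07 CPM in 2i/LIF, 9.82 and 11.2 CPM in VitC/LIF, and 8.92 and 14.1 CPM in FBS/LIF. Its F/A and L-Pro/LIF libraries overlapped too and stood above the rest. Bhlhe40 rose in F/A over FBS/LIF (log2 fold change 1.29 ± 0.24, adjusted p = 0.00306) and in L-Pro/LIF over FBS/LIF (log2 fold change 1.31 ± 0.24, adjusted p = 0.00482) and over VitC/LIF (log2 fold change 1.44 ± 0.24, adjusted p = 0.0023). Ndrg1, a stress-induced gene of differentiation, had 31.1 and 28.6 CPM in F/A, 6.42 and 5.65 CPM in L-Pro/LIF, 8.27 and 8.02 CPM in 2i/LIF, 3.53 and 5.09 CPM in VitC/LIF, and 4.44 and 4.88 CPM in FBS/LIF. F/A stood more than 3-fold above every other library. Ndrg1 rose in F/A over FBS/LIF (log2 fold change 2.68 ± 0.21, adjusted p = 3.1e-05) and over L-Pro/LIF (log2 fold change 2.30 ± 0.21, adjusted p = 0.000337) and in 2i/LIF over FBS/LIF (log2 fold change 0.81 ± 0.20, adjusted p = 0.017) and over VitC/LIF (log2 fold change 0.92 ± 0.21, adjusted p = 0.0125). The threshold was missed in 2i/LIF over FBS/LIF for Ndrg1 without any 1 of the 4 libraries (adjusted p = 0.0616 to 0.0971). Calls ended in 2i/LIF over VitC/LIF for Ndrg1 without replicate 1 of 2i/LIF or replicate 1 of VitC/LIF or replicate 2 of 2i/LIF (adjusted p = 0.0662, 0.0909 and 0.0542).

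The remaining genes of this group were low or moved less. Mxi1, an antagonist of MYC, had 10.3 and 10.9 CPM in F/A, 18.0 and 15.4 CPM in L-Pro/LIF, 27.7 and 31.5 CPM in 2i/LIF, 22.9 and 21.5 CPM in VitC/LIF, and 16.5 and 17.9 CPM in FBS/LIF. 2i/LIF was highest and F/A lowest. Mxi1 rose in 2i/LIF over FBS/LIF (log2 fold change 0.78 ± 0.14, adjusted p = 0.0028) and fell in F/A over FBS/LIF (log2 fold change -0.69 ± 0.14, adjusted p = 0.00458) and over L-Pro/LIF (log2 fold change -0.65 ± 0.14, adjusted p = 0.0162). Ankrd37, a HIF target with ankyrin repeats, had 2.16 and 4.10 CPM in F/A, 7.20 and 6.08 CPM in L-Pro/LIF, 8.16 and 8.80 CPM in 2i/LIF, 3.04 and 2.78 CPM in VitC/LIF, and 4.81 and 4.50 CPM in FBS/LIF. 2i/LIF was highest, and VitC/LIF and F/A replicate 1 were lowest. Ankrd37 rose in 2i/LIF over FBS/LIF (log2 fold change 0.86 ± 0.28, adjusted p = 0.0455) and over VitC/LIF (log2 fold change 1.54 ± 0.29, adjusted p = 0.00521) and in L-Pro/LIF over VitC/LIF (log2 fold change 1.19 ± 0.29, adjusted p = 0.0138), and fell in F/A over L-Pro/LIF (log2 fold change -1.04 ± 0.29, adjusted p = 0.0363). In 2i/LIF over FBS/LIF its adjusted p in edgeR's test was 0.0509 with the replicate block. Vegfa, the vessel growth factor, ran from 12.0 to 34.6 CPM and was called in F/A over L-Pro/LIF alone (log2 fold change 1.07 ± 0.32, adjusted p = 0.0432), but its unique hits were 97.7% to 195% of the estimate, so its level is unreliable, and its adjusted p in edgeR's test was 0.0506 with the replicate block. Ero1l, an oxidase of protein folding, ran from 48.5 to 94.1 CPM and was called in no comparison. Car9, a carbonic anhydrase often used as a marker of hypoxia, lay between 0 and 1.14 CPM, and Adm, the peptide adrenomedullin, between 0.0578 and 0.917 CPM, and neither was called. A call was lost in 2i/LIF over FBS/LIF for Ankrd37 without any 1 of the 4 libraries (adjusted p = 0.13 to 0.194). Adjusted p rose past the threshold in L-Pro/LIF over VitC/LIF for Ankrd37 without replicate 1 of VitC/LIF or replicate 1 of L-Pro/LIF or replicate 2 of VitC/LIF (adjusted p = 0.0695, 0.0919 and 0.0925). In F/A over L-Pro/LIF the call was lost for Mxi1 without replicate 1 of L-Pro/LIF or replicate 1 of F/A (adjusted p = 0.115 and 0.0557), for Ankrd37 without replicate 1 of L-Pro/LIF or replicate 1 of F/A or replicate 2 of L-Pro/LIF (adjusted p = 0.179, 0.103 and 0.0853) and for Vegfa without replicate 1 of L-Pro/LIF or replicate 2 of L-Pro/LIF or replicate 2 of F/A (adjusted p = 0.18, 0.165 and 0.284).

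The second experiment gave 1 library per condition, so its differences have no replicate check and no test, and genes were counted where log2 of CPM plus 0.5 differed by 1 or more, which is a 2-fold difference in CPM plus 0.5. Past 2-fold is used in that sense below, and it leaves out some genes that differ 2-fold in CPM itself. After 5 days of L-proline 6 of the 43 genes were past 2-fold higher and 10 past 2-fold lower than in day 0 cells, against 15.3% higher, 12.2% lower and 27.4% in either direction among 17794 genes. Among the higher genes, Pfkfb3 had 88.5 CPM with L-proline and 12.6 CPM at day 0, Bhlhe40 had 92.4 CPM with L-proline and 15.5 CPM at day 0, Slc16a3 had 140.5 CPM with L-proline and 62.2 CPM at day 0 and Ddit4 had 74.8 CPM with L-proline and 33.0 CPM at day 0. Car9 (2.46 CPM with L-proline and 0.505 CPM at day 0) and Adm (2.01 CPM with L-proline and 0.475 CPM at day 0) were higher as well, at low levels. Among the lower genes Bnip3 had 12.2 CPM with L-proline and 138 CPM at day 0 and Fam162a had 29.1 CPM with L-proline and 67.9 CPM at day 0. In upper glycolysis Pfkp had 70.5 CPM with L-proline and 697 CPM at day 0, Hk1 had 22.4 CPM with L-proline and 72.4 CPM at day 0, Aldoa had 592 CPM with L-proline and 1208 CPM at day 0 and Aldoc had 3.05 CPM with L-proline and 18.9 CPM at day 0. Pdk1 (65.7 CPM with L-proline and 287 CPM at day 0), Epas1 (11.2 CPM with L-proline and 74.5 CPM at day 0), Mxi1 (10.2 CPM with L-proline and 43.4 CPM at day 0) and Vegfa (15.7 CPM with L-proline and 47.5 CPM at day 0) were lower as well. Lower glycolysis had no gene past 2-fold among 6 on this scale, but Eno2 had 3.61 CPM after L-proline and 1.60 CPM at day 0, a ratio of 2.25. Markers of cell types also differed between these libraries, and their part in the results was not tested. Summed over the 8 stem cell markers, levels were 2178 CPM after L-proline and 3729 CPM at day 0, with Zfp42 at 19.9 and 422 CPM. Over the 7 trophectoderm markers they were 1065 CPM after L-proline and 82.6 CPM at day 0, with the keratin Krt8 at 702 and 3.15 CPM. Over the 5 neuroectoderm markers they were 788 CPM after L-proline and 7.99 CPM at day 0, nearly all of it from Nes after L-proline. Fibroblast markers summed to 93.2 CPM after L-proline and 32.3 CPM at day 0, where Dcn, Lum and Twist2 were at 0, and 7 primitive endoderm markers to 153 CPM after L-proline and 26.3 CPM at day 0. Cdx2 was at 0 at day 0 and Elf5 in both libraries, as was Neurog2.

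The nearest contrast in the main experiment is L-Pro/LIF over VitC/LIF, and set beside it the values split. Both of its media were harvested after 5 days, whereas the second experiment set day 5 cells against day 0 cells. The experiments also differed in vitamin C dose, RNA extraction, the described cell population and the kind of counts deposited. The L-proline dose of L-Pro/LIF was not stated. Of the 20 genes called higher in L-Pro/LIF over VitC/LIF, 12 lay below 0 after L-proline in the second experiment, 3 of them past 2-fold lower, and 8 lay above 0, 4 of them past 2-fold higher. The 4 past 2-fold higher in both were Pfkfb3, Bhlhe40, Slc16a3 and Ddit4. All 3 genes called lower, Epas1, Hk1 and Pfkp, were past 2-fold lower in the second experiment. The same split was not counted for all genes called, so it cannot be read as particular to the listed genes. Among all genes of the second experiment, 15.3% were past 2-fold higher and 12.2% past 2-fold lower after L-proline. Bnip3 differed most, with a log2 fold change of 1.88 in L-Pro/LIF over VitC/LIF and a log2 difference of -3.45 between the single libraries. The pairing of these contrasts was chosen after the values of Bnip3 had been seen, and the difference between the experiments was not tested.

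**Figure D5:**
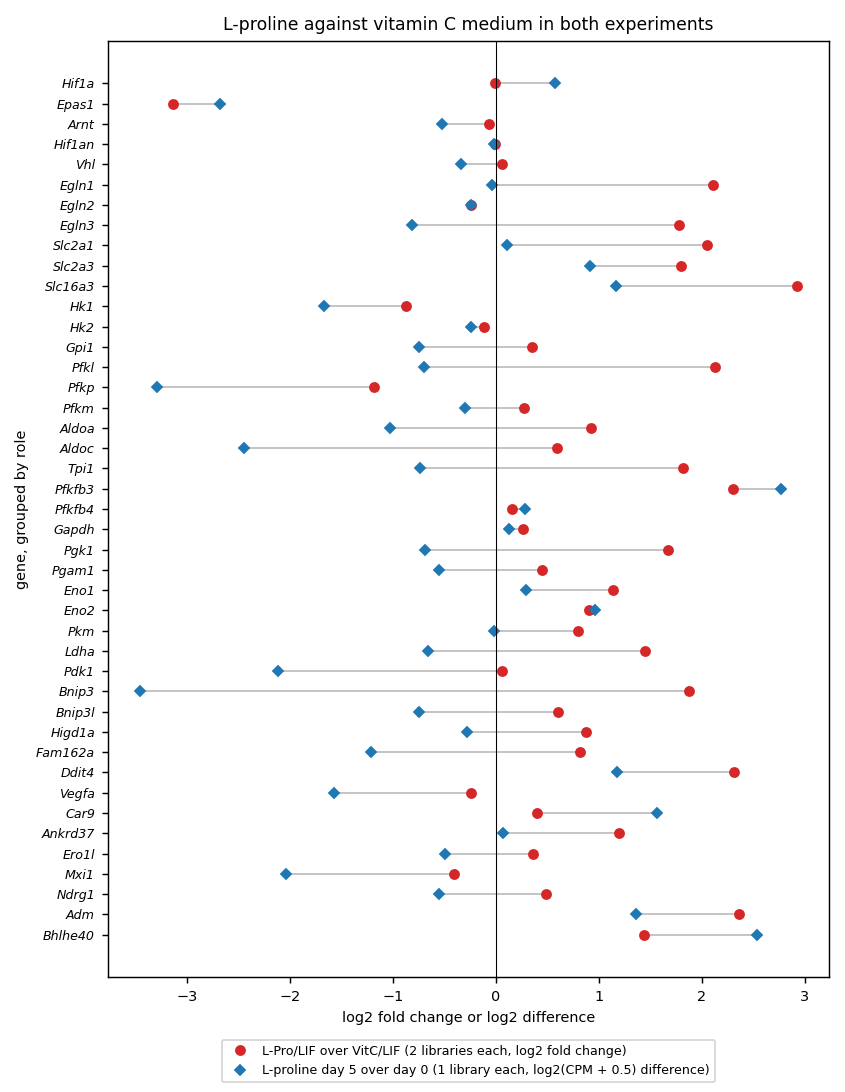
For each of the 43 genes, the log2 fold change in L-Pro/LIF over VitC/LIF (circles, 2 libraries each) and the log2 difference of CPM plus 0.5 between L-proline day 5 and day 0 cells of the second experiment (diamonds, 1 library each). Slc16a3, Pfkfb3, Ddit4, Bhlhe40 and the uncalled, scarce Adm lie above 1 in both, Epas1 and Pfkp below -1 in both, and Bnip3 lies at 1.88 and -3.45.

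In F/A the second experiment gave a course over days 0, 3 and 5. Past 2-fold against day 0 were 4 higher and 5 lower at day 3, against 13.2% higher, 10.3% lower and 23.5% in either direction among all genes, and 8 higher and 6 lower at day 5, against 16.4% higher, 13.2% lower and 29.6% in either direction. Adm at day 3 (1.30 CPM, against 0.475 CPM at day 0) and Aldoc at days 3 and 5 (9.38 and 9.28 CPM, against 18.9 CPM at day 0) differed 2-fold in CPM but not in CPM plus 0.5. Over days 0, 3 and 5 the stem cell markers summed to 3729, 2527 and 1934 CPM, the trophectoderm markers to 82.6, 58.4 and 574 CPM, the neuroectoderm markers to 7.99, 136 and 765 CPM, the primitive endoderm markers to 26.3, 63.0 and 137 CPM and the fibroblast markers to 32.3, 37.9 and 40.5 CPM. Their part in the course was not tested. Between day 5 and day 3, 5 genes were past 2-fold higher and 2 lower, against 13.9% in either direction, 7.06% higher and 6.88% lower among all genes. Slc16a3 had 62.2, 179 and 286 CPM at days 0, 3 and 5, Ddit4 had 33.0, 100.3 and 227 CPM, and Pfkfb3 had 12.6, 27.9 and 156 CPM. Each of these 3 genes was higher at each later time. Pfkp had 697, 33.3 and 34.0 CPM, Hk1 had 72.4, 13.3 and 16.3 CPM, and Epas1 had 74.5, 9.38 and 2.01 CPM. Pfkp and Hk1 were thus at their low level by day 3, while Epas1 was lower still at day 5. Ndrg1 had 12.5, 4.21 and 50.4 CPM, Bhlhe40 had 15.5, 14.6 and 71.5 CPM, and Pdk1 had 287, 152.5 and 70.8 CPM. Ndrg1 was past 2-fold lower at day 3 and, with a log2 difference of 1.96 against day 0, past 2-fold higher at day 5. The main experiment had another baseline for F/A, FBS/LIF after 5 days, where the second had day 0 cells with 100 µM vitamin C. In the main experiment F/A over FBS/LIF gave 2.68 for Ndrg1, 2.19 for Pfkfb3, 1.10 for Slc16a3, 1.32 for Ddit4, -2.40 for Pfkp and -2.23 for Pdk1 as log2 fold changes. Hk1 was not called there (log2 fold change -0.17 ± 0.20, adjusted p = 0.527), against a log2 difference of -2.12 at day 5 from day 0 cells.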

How the data were processed

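The measurements were RNA-seq libraries of 2 experiments, 10 in the main one and 4 in the second. Per the submitters' processing notes, the tools were CASAVA, HTSeq 0.6.1p1 and TopHat2 2.0.13, for the main experiment also Bowtie and DESeq, and the build was mm9 (NCBIM37), and whether counting used strand was not given in the sources used here. For the main experiment the authors deposited gene tables with the natural log of FPKM, unique-hit counts and effective lengths. From these, estimated counts were computed here as FPKM times effective length times mapped fragments and rounded to whole numbers. Replicate 2 libraries had longer effective lengths than replicate 1, by a median of 39.4 to 54.1 bases against FBS/LIF replicate 1 in transcripts over 1000 bases, and the labels do not say whether the number marks a batch. For the second experiment the authors deposited raw counts per gene.

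Estimated counts of the 10 main libraries entered 1 fit with edgeR 4.0.16 (R 4.3.3), with its default filter on low counts, TMM scaling and the quasi-likelihood F test, in 7 comparisons, with p-values adjusted by Benjamini-Hochberg over 16033 genes and a threshold of 0.05. The SE was taken as the size of the log2 fold change divided by the root of the F statistic. The 4 libraries with raw counts were compared as log2 of TMM-scaled CPM plus 0.5, without a test. The alternatives were DESeq2 1.42.0, other scalings, no filter, unique hits, a replicate block, fits of 4 libraries and each library left out in turn, and for the second experiment library totals and a pseudocount of 2. Intervals cover the spread between libraries alone. Gene symbols came from a table of GENCODE names and promoters from RefSeq GRCm38.p6, which is another build than that of the counts.

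The 43 genes and the other gene lists were chosen with earlier results of these data known. Values in every library are given for genes called in at least 2 comparisons and for genes of oxygen sensing, the rest by range, and from each other list up to 4 called genes with the largest change per comparison were eligible, and those named are some of these. The test was checked on simulated data, where the share of false calls was above the nominal 0.05. The check was passed only after its criterion had been widened and more simulated sets pooled, so with 2 libraries a medium the calls may hold more false ones than the threshold implies. Python 3.11.15, numpy 2.4.6, pandas 2.3.3 and matplotlib 3.10.9 were used.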

Additional observations from a re-analysis of the deposited data

Results flagged for a closer look

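Among the 43 genes, 4 moved one way in both L-Pro/LIF libraries against both VitC/LIF libraries and the other way, past 2-fold, between the L-proline day 5 and day 0 libraries of the second experiment. How many of all genes met this rule was not counted, so 4 of 43 cannot be set against a background share. Between the single libraries, 12.2% of all genes were past 2-fold lower and 15.3% past 2-fold higher. Bnip3 had a log2 fold change of 1.88 in L-Pro/LIF over VitC/LIF and a log2 difference of -3.45 in the second experiment. Aldoa had 0.92 and -1.03, Fam162a had 0.82 and -1.21, and Aldoc, which was not called, had 0.59 and -2.45. The difference between the experiments was not tested, and the pairing of these contrasts was chosen after values had been seen. The experiments differed in vitamin C dose (500 and 100 µM), in RNA extraction, in the described cell population and in the kind of counts deposited. Day 0 cells were the baseline in the second experiment, while both media of the main contrast were harvested after 5 days. The L-proline dose of L-Pro/LIF was not stated. The second experiment had 1 library per condition, so these differences cannot be told apart.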

How the results depend on the processing

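No called gene changed direction under any alternative run. The 121 calls of the 43 genes over 7 comparisons lost significance in 0 cases with DESeq2, 1 with relative log expression scaling, 1 on unique hits (Bnip3 in 2i/LIF over FBS/LIF), 8 without the filter, 8 with mapped totals in place of TMM, 21 in fits of only the 4 libraries compared, and 162 of 484 times with 1 library left out. The number of genes called moved by over 1.5 times with DESeq2 in VitC/LIF over FBS/LIF, to 11, and in the fit of only 4 libraries in F/A over L-Pro/LIF, to 4, and the cause was not tested. With 1 library left out the number ranged over 0 to 0 in VitC/LIF over FBS/LIF, 9 to 13 in L-Pro/LIF over FBS/LIF, 13 to 15 in 2i/LIF over FBS/LIF, 11 to 24 in F/A over FBS/LIF, 17 to 21 in L-Pro/LIF over VitC/LIF, 14 to 16 in 2i/LIF over VitC/LIF and 6 to 26 in F/A over L-Pro/LIF, where the lone library of a medium was assumed to vary like the others. With the replicate block in the fit, 4, 15, 22, 16, 24, 21 and 18 genes were called in VitC/LIF, L-Pro/LIF, 2i/LIF and F/A over FBS/LIF, L-Pro/LIF and 2i/LIF over VitC/LIF and F/A over L-Pro/LIF, in that order, and 6 of the 121 calls were lost. These were Slc16a3 (adjusted p 0.0571) and Eno1 (0.0600) in VitC/LIF over FBS/LIF, Ankrd37 (0.0509) in 2i/LIF over FBS/LIF, Pkm (0.0659) in 2i/LIF over VitC/LIF, and Pfkfb3 (0.0509) and Vegfa (0.0506) in F/A over L-Pro/LIF, while 5 calls were gained. The labels do not say whether the replicate number marks a batch, and the main fit had no term for it. Deviations of same-numbered libraries correlated across genes at r = 0.0985 to 0.518 between media. These correlations were positive for every pair of media and lowest between FBS/LIF and F/A. The common biological coefficient of variation, edgeR's measure of spread within a medium, was 0.238 in the main fit and 0.189 with the replicate block. In the second experiment the counts past 2-fold moved to 14 of 16, 8 of 9 and 12 of 14 with a pseudocount of 2 for L-proline, F/A day 3 and F/A day 5, and did not change with library totals or without the filter. Depth limits Car9 and Adm, which were near 0 in the main libraries, and the shallow F/A replicate 1 limits the comparisons with F/A.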
